A study of Mus musculus with 18 samples.

Results

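The translation initiation and elongation factor genes of mouse haematopoietic stem cells (HSCs) are described here by their RNA levels in an m6A immunoprecipitation. They were chosen by gene symbol: names beginning Eif1 to Eif6, Eef1 or Eef2, Pabpc followed by a digit, and Etf1 and Gspt1. Names beginning Eif2ak, Eef1e1 or Eif2s3y, and names of pseudogenes holding "-ps", were left out. The rule gave 69 of 23038 genes, and the 50 whose RPKM averaged 10 or more across the 6 columns were compared. RPKM is the number of reads on a gene divided by its length in kilobases and by the library's reads in megareads (M reads). Most of these genes encode factors of cytosolic translation. The rule also takes 4 genes under older symbols, Eif2c1 to Eif2c4, which are now named Ago1 to Ago4 and encode Argonaute proteins of the small RNA pathway. All 4 averaged under 10 RPKM across the 6 columns and none entered a comparison.

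HSCs were sorted from the bone marrow of adult C57BL/6 mice as Lineage-, Sca1+, cKit+, CD150+, CD48- cells, 3000 per sample. One genotype was labelled wild-type. The other carried Mx1-cre and Mettl3 fl/fl, so that the floxed gene for the m6A methyltransferase Mettl3 was removed when interferon switched on the Cre. The Mx1 promoter answers to interferon in many cell types and is not particular to HSCs. The labels give both genotypes the same treatment, 5 intraperitoneal doses of 10 µg pIpC with collection 10 days after the last, and do not say whether the wild-type mice carried Mx1-cre. Poly(A)+ RNA was kept as input or incubated with 1.25 µg of an antibody against m6A. The pooled washes made the unbound fraction and the RNA released from the antibody made the m6A-tagged fraction. There were thus 6 groups (input, unbound and m6A-tagged RNA of either genotype) of 3 libraries each.

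Translation of most mRNAs begins when eIF4F binds the cap and eIF3, eIF1, eIF1A and the eIF2 ternary complex bring the small ribosomal subunit and initiator tRNA to the start codon. eIF5 and eIF5B complete initiation, eEF1A and eEF2 drive elongation, and eRF1 and eRF3 end it. Several of the mRNAs concerned begin with a terminal oligopyrimidine (TOP) tract, which puts them under control of the mTOR kinase together with ribosomal protein mRNAs. HSCs are known for a low rate of protein synthesis, which their self-renewal depends on, and m6A is laid down on mRNA by Mettl3 with Mettl14.

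Each group has 1 column, the mean of its 3 libraries, so no difference below has a replicate check and no p-value is given. The recovered depth was 24.3 to 37.2 M reads in wild-type libraries and 9.42 to 33.6 M reads in Mettl3-deficient ones, the shallowest of them an input library. The Mettl3-deficient unbound libraries had 27.3, 13.9 and 12.2 M reads, against 24.3 to 27.4 M reads in wild-type unbound ones. Mettl3 stood at 36.4, 33.2 and 36.1 RPKM in wild-type input, unbound and m6A-tagged RNA and at 19.6, 11.2 and 17.4 RPKM in the same fractions of Mettl3-deficient cells. The Mettl3-deficient values were thus lower but not near 0. Of the 12 HSC markers listed, 5 were lower in Mettl3-deficient than in wild-type input, and the 12 summed to 1131 against 1004 RPKM. Ly6a alone differed by more than this sum did, at 348 against 118 RPKM. Markers of other cells differed more for some lists than for others. The 10 neutrophil and promyelocyte markers summed to 6906 RPKM in wild-type input and 1207 RPKM in that of Mettl3-deficient cells, with 10 of 10 lower. The 7 erythroid markers in the tables summed to 171 and 52.4 RPKM, with 7 of 7 lower. For the 6 T and NK cell markers found, the sums were 206 and 49.4 RPKM, with 5 of 6 lower. Most of them was Nkg7, at 188 and 46.2 RPKM. The 6 monocyte and macrophage markers gave 128 and 84.4 RPKM, with 4 of 6 lower. The 7 B cell markers gave 106 and 93.4 RPKM, with 6 of 7 lower. Most of these sums was Cd79b, the marker that was not lower, at 84.7 and 90.6 RPKM. Their part in the genotype differences below was not tested. In bulk RNA, fewer cells of a type and less RNA per cell cannot be told apart.

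The 50 genes compared were abundant. In wild-type input their median was 115 RPKM, from 15.6 RPKM for Eif2b3, a subunit of the exchange factor eIF2B, to 1709 RPKM for Eef1a1, which delivers aminoacyl-tRNA to the ribosome. Eef1a1 was the highest of the 50 in 5 of the 6 columns. The exception was Mettl3-deficient unbound RNA, where Eif5a stood at 3209.9 RPKM against 2757 for Eef1a1. The lowest in wild-type input after Eif2b3 were Eif4e3, Eif4enif1 and Eif4e2, which bind the cap or eIF4E. The heat map of levels shows all 50.

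**Figure D1:**
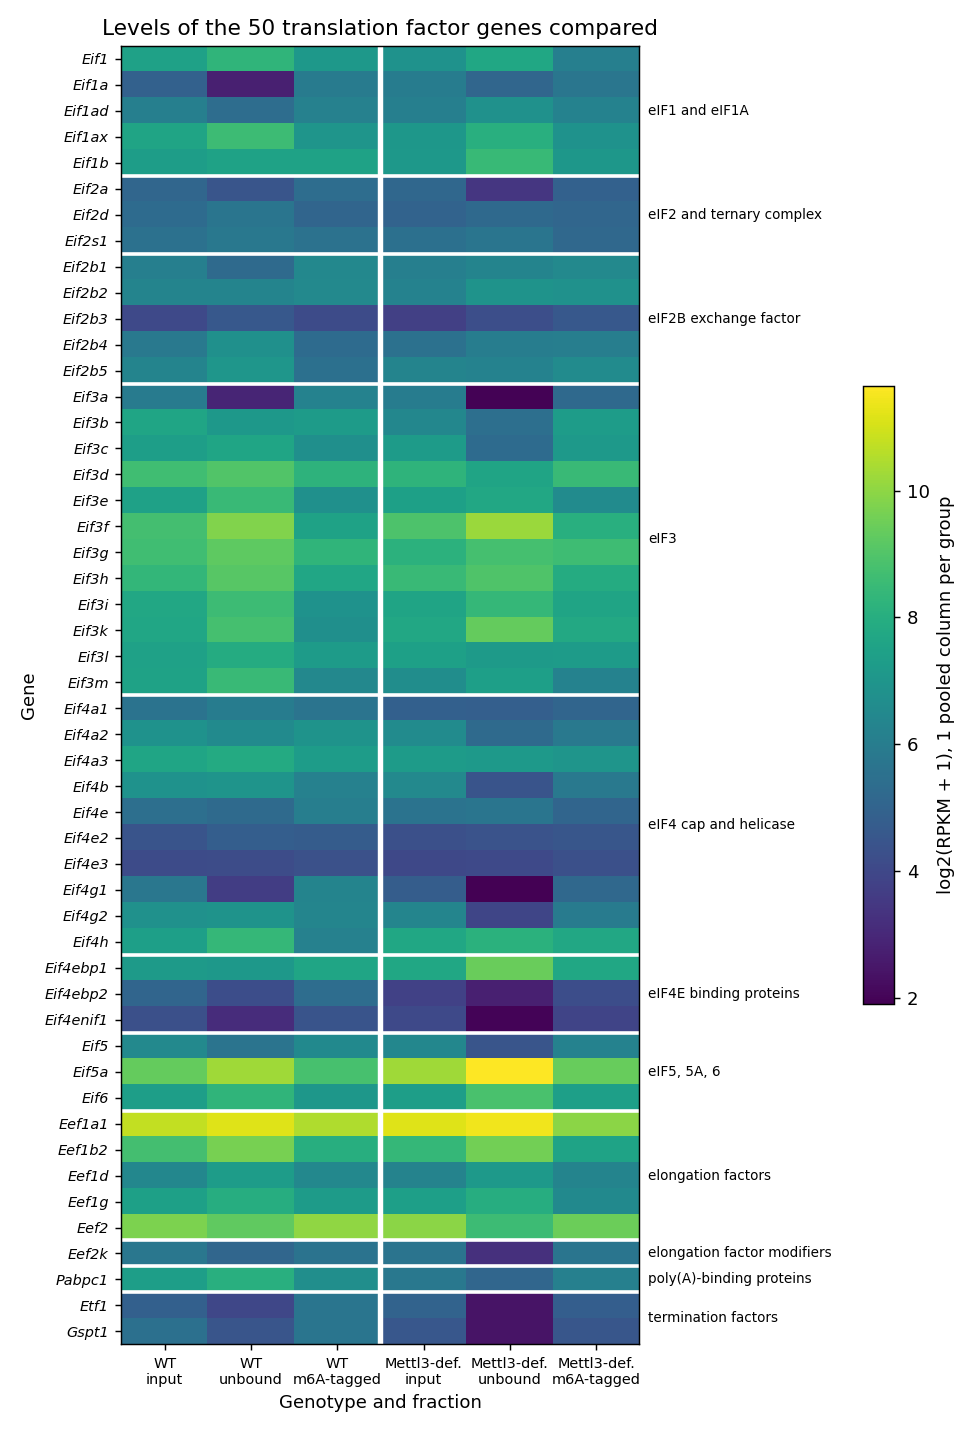
Heat map of log2(RPKM + 1) for the 50 translation factor genes compared (rows, grouped by role) in the 6 groups (columns, 1 pooled value each). Eef1a1, Eif5a and Eef2 are the brightest rows, and Eif3a, Eif4g1 and Eif4enif1 are among the darkest cells of both unbound columns.

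In wild-type HSCs more of these genes were highest in the unbound than in the m6A-tagged fraction. The same held for all genes of high level. Of the 50, 30 had their highest wild-type RPKM in unbound RNA, 18 in m6A-tagged RNA and 2 in input. Over all genes compared 42.7% were highest in unbound RNA. On the scale of log2((RPKM + 1)/(RPKM + 1)), used for every difference and fold below, the median m6A-tagged to unbound difference was -0.56 for these genes and 0.12 for the 6295 genes compared. A gene is called here at a 2-fold difference, which is a log2 difference of 1. By this measure 15 of the 50 were lower in m6A-tagged RNA, where 19.3% of all genes were, and 8 were higher, where 31.5% of all genes were. With columns rescaled by their upper quartile the counts were 13 lower and 12 higher, against 14.3% and 35.2% of all genes, and the median stayed below 0. The shares over all genes depend on their level. With a minimum mean of 50 RPKM, which 34 members and 2411 genes met, the median was -0.84 for the members and -0.55 for all genes, the latter nearly the value of the 50 members at the lower minimum. There 15 of the 34 were lower, where 31.8% of all genes were, and 1 was higher, where 14.9% were. Unbound RNA was the highest fraction for 25 of the 34 (73.5%) and for 64.8% of all genes at that minimum.

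In Mettl3-deficient cells the same comparison gave 14 of the 50 lower and 14 higher, against 16.9% and 33.7% of all genes. The median was 0.03, against 0.33 for all genes. That median was -0.26 under median-ratio scaling of the columns, and -0.48 with a minimum mean of 50 RPKM, so it has no stable direction. At that minimum the median of all genes was -0.40, and under median-ratio scaling it was 0.05.

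Counted over both genotypes, 10 of the 50 were 2-fold lower in m6A-tagged than in unbound RNA in each, where 9.21% of all genes were. They were Eif1, Eif1ax, Eif3e, Eif3f, Eif3h, Eif3k, Eif3m, Eif5a, Eif6 and Eef1b2. A further 6 were 2-fold higher in each, where 18.4% of all genes were: Eif3a, Eif4g1, Eif4ebp2, Eif4enif1, Etf1 and Gspt1. Pabpc1 alone was 2-fold lower in wild-type and 2-fold higher in Mettl3-deficient cells, as were 1.35% of all genes. With upper-quartile scaling 6 were lower and 8 higher in both, against 6.91% and 21.6% of all genes. With a minimum mean of 50 RPKM the 34 members left gave 10 lower and 0 higher, against 18.4% and 5.68% of all genes, since each of the 6 higher genes averaged less than that. These counts were taken after the values had been seen.

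**Figure D2:**
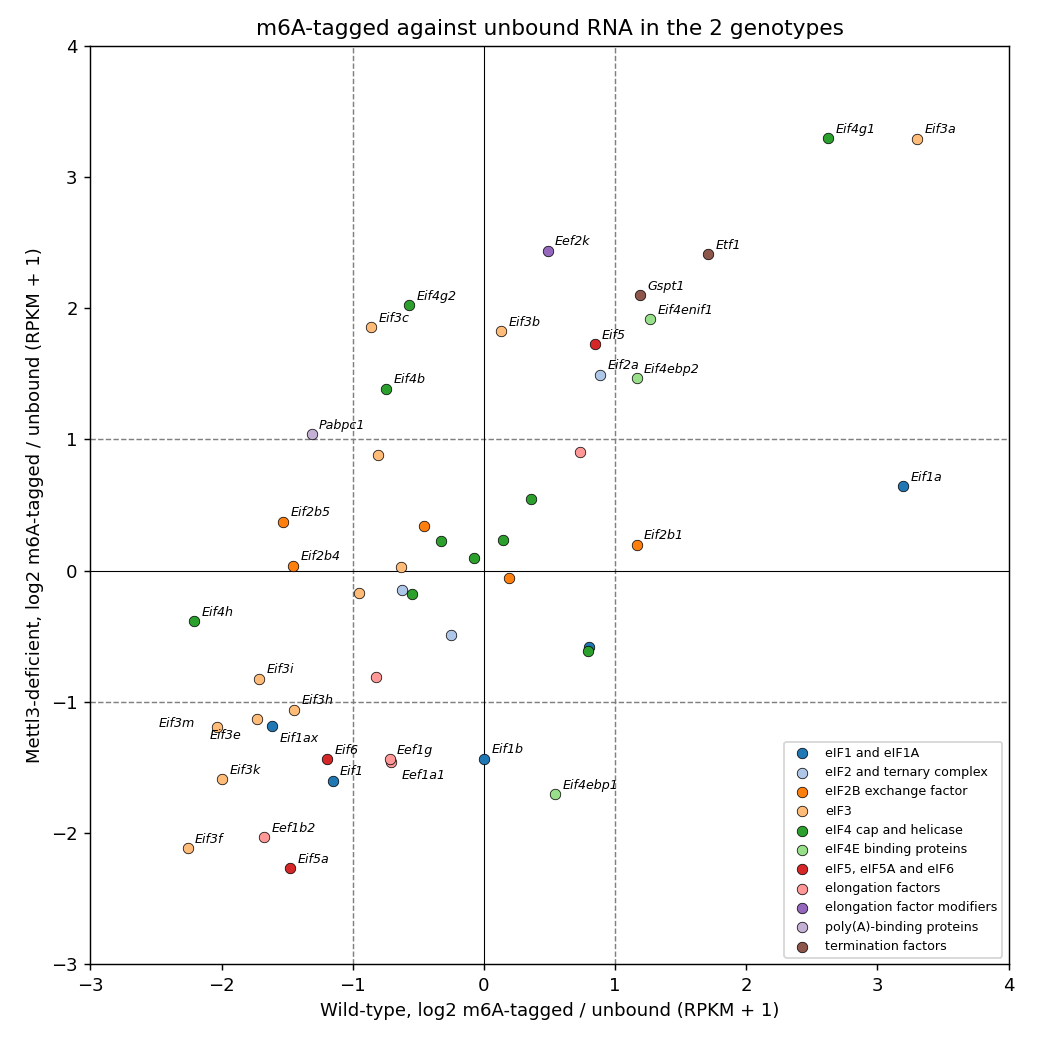
The log2 m6A-tagged to unbound difference of the 50 genes in wild-type (x axis) and Mettl3-deficient cells (y axis), coloured by role, with dashed lines at 2-fold. Eif3a and Eif4g1 lie at the upper right above 2.5 on both axes, most eIF3 subunits lie at the lower left, and Pabpc1 is the 1 gene at the upper left beyond both lines.

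eIF3 is the large complex that scaffolds the small ribosomal subunit during initiation. Of its 13 genes in the tables, 12 were compared. In wild-type cells 10 of the 12 followed the same order, highest in unbound RNA, then input, then m6A-tagged, an order held by 33.9% of all genes. In Mettl3-deficient cells 5 of the 12 did, and 17.3% of all genes. With a minimum mean of 50 RPKM, which leaves out Eif3a, the order was held by 10 of 11 in wild-type and 5 of 11 in Mettl3-deficient cells, against 52.2% and 29.2% of all genes. The median m6A-tagged to unbound difference of the 12 was -1.20 in wild-type cells and -0.50 in Mettl3-deficient ones. Of the 12, 6 and 5 were 2-fold lower and 1 and 3 were 2-fold higher. Over all genes compared the medians were 0.12 and 0.33, with 19.3% and 16.9% lower and 31.5% and 33.7% higher. With a minimum mean of 50 RPKM they were -0.55 and -0.40, with 31.8% and 31.2% lower and 14.9% and 16.6% higher.

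Values below are given in the order input, unbound and m6A-tagged. Eif3f (gene ID 66085, chr7:108934415-108941942 of mm10) read 426, 886 and 184 RPKM (wild-type) and 492, 1151 and 265 RPKM (Mettl3-deficient). The unbound values were the highest of the eIF3 genes in both genotypes, and m6A-tagged RNA was 4.78-fold lower than unbound in wild-type and 4.33-fold lower in Mettl3-deficient cells. Eif3k read 201, 433 and 108 RPKM (wild-type) and 214, 656 and 217 RPKM (Mettl3-deficient). Its m6A-tagged RNA was 3.99-fold and 3.01-fold lower than unbound. Eif3m read 183, 362 and 87.5 RPKM (wild-type) and 103, 170.3 and 74.2 RPKM (Mettl3-deficient), and was lower in all 3 Mettl3-deficient fractions than in the wild-type ones. Its differences between m6A-tagged and unbound were 4.10-fold and 2.28-fold. Eif3e read 178, 366 and 109 RPKM (wild-type) and 174, 215 and 97.5 RPKM (Mettl3-deficient), and Eif3h read 322, 551 and 202 RPKM (wild-type) and 366, 495 and 237 RPKM (Mettl3-deficient). Both were lowest in m6A-tagged RNA in either genotype, by 3.32-fold and 2.19-fold against unbound for Eif3e and by 2.72-fold and 2.09-fold for Eif3h. With upper-quartile scaling the Mettl3-deficient differences of Eif3e and Eif3h fell short of 2-fold.

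Eif3a, the largest subunit, went the other way. Eif3a (gene ID 13669, chr19:60761116-60790693) read 60.9, 6.52 and 73.3 RPKM (wild-type) and 63.6, 2.88 and 37.0 RPKM (Mettl3-deficient). Its unbound RNA was the lowest of the eIF3 genes in both genotypes, and m6A-tagged RNA was 9.88-fold higher than unbound in wild-type and 9.81-fold higher in Mettl3-deficient cells. Eif3a partners Eif3c in the core of the complex, and the 2 did not share this pattern. Eif3c read 166, 195 and 107 RPKM (wild-type) and 150.1, 38.8 and 143 RPKM (Mettl3-deficient). In wild-type cells its m6A-tagged RNA was below unbound, by 1.82-fold, and in Mettl3-deficient cells it was 3.62-fold above. The Mettl3-deficient unbound value of Eif3c was 4.94-fold below the wild-type one, while its inputs differed 1.10-fold.

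Eif3b, a scaffold subunit with an RNA recognition motif, read 197, 137 and 150.2 RPKM (wild-type) and 83.7, 43.7 and 157 RPKM (Mettl3-deficient). It was the 1 eIF3 gene to differ 2-fold between the inputs, 2.33-fold lower in Mettl3-deficient cells. Eif3d, which can bind the cap of some mRNAs, read 407, 513 and 293 RPKM (wild-type) and 301, 195 and 361 RPKM (Mettl3-deficient). Its order in Mettl3-deficient cells was the reverse of that in wild-type cells. Eif3g read 402, 598 and 309 RPKM (wild-type) and 286, 442 and 392 RPKM (Mettl3-deficient), Eif3i read 216, 382 and 116 RPKM (wild-type) and 195, 339 and 191 RPKM (Mettl3-deficient) and Eif3l read 178, 235 and 151 RPKM (wild-type) and 172, 148 and 151 RPKM (Mettl3-deficient). In wild-type cells all 3 were highest in unbound and lowest in m6A-tagged RNA. The difference was past 2-fold for Eif3i, 3.28-fold lower in m6A-tagged than in unbound RNA.

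**Figure D3:**
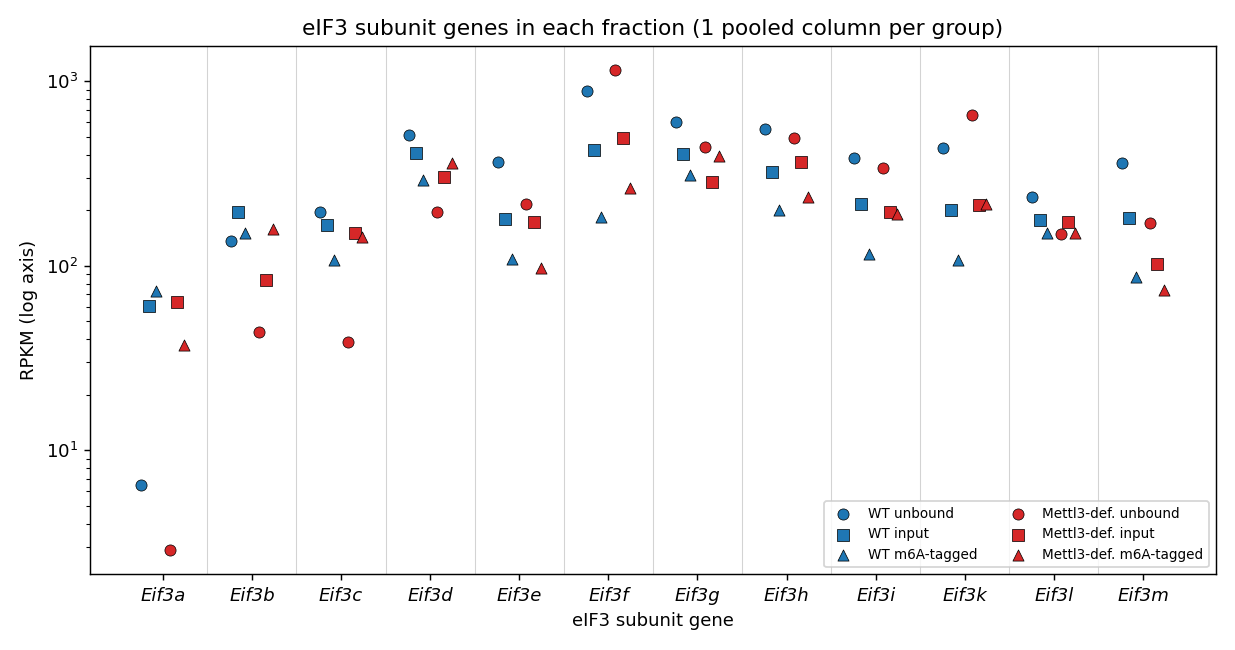
RPKM (log axis) of the 12 eIF3 genes compared, wild-type in blue and Mettl3-deficient in red, with circles for unbound, squares for input and triangles for m6A-tagged RNA, 1 pooled value per group. Eif3a has its circles far below its other symbols, and Eif3f has its circles at the top, at 886 and 1151 RPKM.

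Since TOP mRNAs are a known class among these genes, the sequence around each annotated start was searched for a pyrimidine tract. The search took the longest run that starts with C and then holds C or T alone, within 50 bases either side of a RefSeq start, on the gene's own strand, over all the starts listed for a gene. The minimum of 8 bases was set after lengths from 7 to 10 had been looked at. Of the 37 genes compared that have a sequence in the RefSeq promoter table, 16 (43.2%) held such a run, as did 50 of 60 ribosomal protein genes (83.3%) and 8645 of all 27025 genes (32.0%). Among members 2-fold lower in m6A-tagged than in unbound RNA in both genotypes 4 of 7 held one, and among those 2-fold higher 2 of 5. The following windows of 30 bases show the runs, in capitals, for 3 eIF3 genes that were lower in both, for Eif3a, which was higher in both, and for Eef1a1, the highest of the 50 genes in wild-type input. They are from RefSeq on GRCm38.p6, the assembly behind mm10.
Eif3f: ttctaggCTCTCTCTCTTTCTCggcaagat
Eif3k: ctgaaagcgCCTTTCCCTTTgccttccttg
Eif3m: acggcaccgCTCTCTTTTCCggtcggcgtg
Eif3a: atcacgtggttCCTTCCTTTCCgtctctgg
Eef1a1: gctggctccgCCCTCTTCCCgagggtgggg
The Eif3f window lies at chr7:108934404-108934433 on the plus strand, and its run of 15 bases begins 4 bases before the annotated start. The Eif3k window, chr7:28981855-28981884 on the minus strand, has its run in the transcribed part, as has the Eif3a window, chr19:60790644-60790673 on the minus strand. The Eif3m window is chr2:105017027-105017056 on the minus strand. Its run of 11 bases begins 20 bases before the start and lies wholly before it. The Eef1a1 window is chr9:78481710-78481739 on the minus strand, and its run of 10 bases begins 5 bases before the start. A tract of this kind was thus found beside genes of either direction, and a match is a description of the letters alone. The search also missed some genes known as TOP mRNAs. The longest runs of Eef1b2, Eef2 and Eif4b were 5, 7 and 7 bases, short of the minimum. Eef1a1 and Eif3f, also known as TOP mRNAs, passed it, and Eif3e, Eif3h, Eef1d, Eef1g and Pabpc1 had no sequence to search. The counts of genes with a run are therefore not counts of TOP mRNAs.

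A list of 10 of these genes known as TOP mRNAs (Eef1a1, Eef1b2, Eef1d, Eef1g, Eef2, Eif3e, Eif3f, Eif3h, Eif4b and Pabpc1) was also read as a group. Their median m6A-tagged to unbound difference was -1.07 in wild-type cells, with 5 of 10 past 2-fold lower and none past 2-fold higher. In Mettl3-deficient cells it was -1.10, with 6 lower and 2 higher, Eif4b and Pabpc1. The 40 other members had medians of -0.16 and 0.15, and both of these change sign with the scaling. For comparison, the 81 cytosolic ribosomal protein genes had medians of -1.58 and -2.27, with 70 and 77 of them 2-fold lower. Of all genes compared, 19.3% and 16.9% were 2-fold lower and 31.5% and 33.7% higher, with medians of 0.12 and 0.33. Those shares depend on level. Each of the 10 TOP mRNAs listed averaged more than 50 RPKM, as did only some of the 40 other members. With a minimum mean of 50 RPKM, 31.8% and 31.2% of all genes were lower and 14.9% and 16.6% higher, with medians of -0.55 and -0.40. No difference between these lists was tested.

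eIF1 and eIF1A hold the scanning ribosome ready for start codon selection. Eif1 read 179, 306 and 137 RPKM (wild-type) and 116, 209 and 68.2 RPKM (Mettl3-deficient) and Eif1ax, the X-linked eIF1A gene, read 194, 382 and 124 RPKM (wild-type) and 131, 265 and 116 RPKM (Mettl3-deficient). Both were highest in unbound and lowest in m6A-tagged RNA in either genotype. The wild-type difference of Eif1, 2.22-fold, was under 2-fold with upper-quartile scaling. The near copy Eif1a read 29.2, 5.81 and 61.4 RPKM (wild-type) and 62.6, 33.4 and 52.7 RPKM (Mettl3-deficient). It had the lowest wild-type unbound value of the 50, and its m6A-tagged RNA was 9.16-fold higher than unbound in wild-type but 1.56-fold higher in Mettl3-deficient cells. Eif1b read 158, 182 and 183 RPKM (wild-type) and 135, 358 and 132 RPKM (Mettl3-deficient) and Eif1ad read 67.2, 40.6 and 71.4 RPKM (wild-type) and 68.9, 112 and 74.2 RPKM (Mettl3-deficient). Their unbound values were 1.96-fold and 2.70-fold higher in Mettl3-deficient cells, and their other 2 fractions differed less. How reads shared by Eif1 and Eif1b, or by Eif1a and Eif1ax, were assigned is not given in the sources used here.

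eIF2 carries initiator tRNA as a GTP-bound complex, and eIF2B recharges it. Among the eIF2 group, Eif2s1, the alpha subunit whose phosphorylation slows initiation, read 45.1, 55.1 and 46.3 RPKM (wild-type) and 43.7, 50.0 and 35.4 RPKM (Mettl3-deficient). All 6 of its values lay within a narrow range. Eif2d, which can deliver tRNA without eIF2, read 38.9, 50.5 and 32.4 RPKM (wild-type) and 31.4, 37.0 and 33.4 RPKM (Mettl3-deficient), and Eif2a read 34.1, 21.4 and 40.5 RPKM (wild-type) and 34.8, 9.86 and 29.6 RPKM (Mettl3-deficient). Eif2a was lowest in Mettl3-deficient unbound RNA and was 2.82-fold higher in the m6A-tagged fraction there.

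The 5 eIF2B genes were all above 0 in the genotype difference of m6A-tagged to input, which is the Mettl3-deficient log2 difference minus the wild-type one, and 4 of the 5 were under either scaling. Of all genes 52.4% were above 0 before scaling, with a median of 0.04. That median was 0.12 with a minimum mean of 50 RPKM, which all of the 5 but Eif2b3 met. Scaling took it below 0, to -0.02 by median ratios and -0.06 by upper quartiles. Eif2b4 read 56.8, 109 and 39.0 RPKM (wild-type) and 45.9, 65.0 and 66.7 RPKM (Mettl3-deficient), and Eif2b5, the catalytic subunit, read 77.7, 129 and 44.2 RPKM (wild-type) and 78.7, 73.4 and 95.3 RPKM (Mettl3-deficient). In both the m6A-tagged value was the lowest of the wild-type fractions and the highest of the Mettl3-deficient ones. Eif2b1 read 68.0, 37.7 and 85.8 RPKM (wild-type) and 68.5, 77.2 and 88.6 RPKM (Mettl3-deficient), Eif2b2 read 78.3, 78.4 and 89.6 RPKM (wild-type) and 74.5, 118 and 113 RPKM (Mettl3-deficient) and Eif2b3 read 15.6, 23.1 and 16.6 RPKM (wild-type) and 12.5, 18.1 and 23.2 RPKM (Mettl3-deficient). The m6A-tagged RNA of Eif2b1 was 2.24-fold higher than unbound in wild-type cells.

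The eIF4 proteins bind the cap and unwind the 5′ end. Eif4g1, the scaffold of eIF4F, read 53.3, 11.6 and 76.8 RPKM (wild-type) and 26.5, 2.74 and 35.8 RPKM (Mettl3-deficient). It was low in both unbound fractions, with m6A-tagged RNA 6.17-fold higher in wild-type and 9.84-fold higher in Mettl3-deficient cells. Eif4g2, which lacks the eIF4E-binding part, read 113, 118 and 79.1 RPKM (wild-type) and 79.4, 14.4 and 61.8 RPKM (Mettl3-deficient). Its wild-type fractions differed by less than 2-fold, while Mettl3-deficient unbound RNA was 7.69-fold below wild-type, the largest such difference of the 50, with Pabpc1 next. The helicase partner Eif4b read 116, 122 and 72.5 RPKM (wild-type) and 87.9, 20.8 and 55.9 RPKM (Mettl3-deficient) and likewise had 5.66-fold less unbound RNA in Mettl3-deficient cells.

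The other helicase partner, Eif4h, read 169.8, 339 and 72.5 RPKM (wild-type) and 208, 279 and 214 RPKM (Mettl3-deficient). Its m6A-tagged value was the lowest of the wild-type fractions and lay near input in Mettl3-deficient cells. It had the largest excess of Mettl3-deficient over wild-type m6A-tagged RNA of the 50, 2.92-fold, with inputs that differed 1.23-fold. The helicases Eif4a1 and Eif4a2 read 48.5, 62.0 and 49.1 RPKM (wild-type) and 28.6, 28.2 and 33.2 RPKM (Mettl3-deficient) and 115, 92.6 and 119 RPKM (wild-type) and 97.0, 38.1 and 56.1 RPKM (Mettl3-deficient). Both were 2-fold lower in Mettl3-deficient than in wild-type unbound RNA, although Eif4a1 fell short of 2-fold under median-ratio scaling. Eif4a3, which belongs to the exon junction complex, read 197, 231 and 157 RPKM (wild-type) and 152, 143 and 127 RPKM (Mettl3-deficient) and passed 2-fold in no comparison.

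The cap-binding protein Eif4e read 42.8, 37.6 and 65.7 RPKM (wild-type) and 47.8, 51.0 and 32.9 RPKM (Mettl3-deficient). Its m6A-tagged RNA was above input in wild-type and below it in Mettl3-deficient cells, a genotype difference of -1.13. The related Eif4e2 and Eif4e3 read 20.8, 27.4 and 26.0 RPKM (wild-type) and 18.6, 20.3 and 21.8 RPKM (Mettl3-deficient) and 16.7, 17.1 and 19.0 RPKM (wild-type) and 15.1, 15.8 and 18.7 RPKM (Mettl3-deficient). Neither passed 2-fold in any comparison. Eif4g3, a second scaffold gene, had a mean just under 10 RPKM and was not compared. It read 16.1, 2.49 and 18.7 RPKM (wild-type) and 5.40, 0.946 and 11.1 RPKM (Mettl3-deficient).

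The 4E-binding proteins hold eIF4E away from eIF4G. Eif4ebp1 read 149, 136 and 198 RPKM (wild-type) and 208, 689 and 210.5 RPKM (Mettl3-deficient). Mettl3-deficient unbound RNA stood out, 5.04-fold above wild-type unbound, while m6A-tagged RNA of the 2 genotypes was nearly equal. Eif4ebp2 read 32.6, 17.5 and 40.5 RPKM (wild-type) and 12.9, 5.76 and 17.7 RPKM (Mettl3-deficient). It was lower in Mettl3-deficient cells in all 3 fractions, by 2.42-fold in input, and above unbound in m6A-tagged RNA of both genotypes, by 2.24-fold and 2.76-fold. Eif4enif1, which carries eIF4E into the nucleus, read 18.6, 7.90 and 20.4 RPKM (wild-type) and 15.4, 2.97 and 14.0 RPKM (Mettl3-deficient). Its m6A-tagged RNA was 2.41-fold and 3.78-fold higher than unbound.

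Among the remaining numbered factors, Eif5a, whose hypusine-bearing protein helps ribosomes past difficult peptide bonds, read 653, 1234 and 443 RPKM (wild-type) and 1220.2, 3209.9 and 667 RPKM (Mettl3-deficient). It was higher in all 3 Mettl3-deficient fractions, by 1.87-fold in input, 2.60-fold in unbound and 1.50-fold in m6A-tagged RNA. In both genotypes it was lowest in m6A-tagged RNA, 2.78-fold and 4.81-fold below unbound. Eif6, which keeps the large ribosomal subunit apart, read 163, 308 and 134 RPKM (wild-type) and 165, 456 and 168 RPKM (Mettl3-deficient) and was 2.29-fold and 2.70-fold lower in m6A-tagged than in unbound RNA. The wild-type value of Eif6 was under 2-fold with upper-quartile scaling. Eif5, the GTPase activator of eIF2, read 88.2, 49.7 and 90.1 RPKM (wild-type) and 84.3, 21.5 and 73.4 RPKM (Mettl3-deficient). It was 3.31-fold higher in m6A-tagged than unbound RNA of Mettl3-deficient cells and 1.80-fold higher in wild-type cells.

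Among the elongation factor genes Eef1a1 and Eef2 held the highest levels in wild-type input of all 50, while Eef1d was below the median of the 50. Eef1a1 read 1709, 2323 and 1419 RPKM (wild-type) and 2317, 2757 and 1001 RPKM (Mettl3-deficient). It was highest in unbound and lowest in m6A-tagged RNA in both genotypes, and its Mettl3-deficient m6A-tagged RNA was 2.31-fold below input, the 1 gene of the 50 past 2-fold there. The exchange factor subunits that recharge eEF1A gave 3 patterns. Eef1b2 read 424, 813 and 254 RPKM (wild-type) and 335, 764 and 186 RPKM (Mettl3-deficient), Eef1g read 173, 249.6 and 151 RPKM (wild-type) and 169.6, 251 and 92.2 RPKM (Mettl3-deficient) and Eef1d read 84.2, 154 and 86.4 RPKM (wild-type) and 75.2, 138 and 78.1 RPKM (Mettl3-deficient). For Eef1b2 m6A-tagged RNA was 3.19-fold and 4.08-fold below unbound, for Eef1g only the Mettl3-deficient value of 2.71-fold passed 2-fold, and Eef1d differed little between genotypes in any fraction.

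Eef2, the translocase, differed in order from the other 4 elongation factor genes and read 849, 624 and 1038 RPKM (wild-type) and 979.7, 378 and 711 RPKM (Mettl3-deficient). Its wild-type level was highest in m6A-tagged RNA and lowest in unbound, and in Mettl3-deficient cells unbound RNA was again the lowest. Eef2k, the kinase that inhibits eEF2, read 53.8, 33.9 and 47.9 RPKM (wild-type) and 49.1, 8.51 and 50.6 RPKM (Mettl3-deficient). Its values other than Mettl3-deficient unbound lay between 33.9 and 53.8 RPKM, and that unbound value was 3.67-fold below wild-type unbound.

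The termination factors Etf1 (eRF1) and Gspt1 (eRF3a) were low in unbound RNA. Etf1 read 28.6, 14.6 and 50.1 RPKM (wild-type) and 30.9, 4.32 and 27.3 RPKM (Mettl3-deficient) and Gspt1 read 44.2, 21.4 and 50.0 RPKM (wild-type) and 22.5, 4.27 and 21.6 RPKM (Mettl3-deficient). In wild-type cells both were highest in m6A-tagged RNA, 3.27-fold and 2.28-fold above unbound, and in Mettl3-deficient cells both were highest in input, with m6A-tagged RNA 5.33-fold and 4.29-fold above unbound.

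Pabpc1 (gene ID 18458, chr15:36595658-36609581) encodes the main poly(A)-binding protein, which links the mRNA tail to eIF4G, and was the 1 Pabpc gene compared. It read 165, 262 and 105 RPKM (wild-type) and 54.5, 33.7 and 70.2 RPKM (Mettl3-deficient). The wild-type order was unbound, input, m6A-tagged from high to low, and the Mettl3-deficient order was the reverse. Its input was 2.99-fold lower and its unbound RNA 7.60-fold lower in Mettl3-deficient cells. The Mettl3-deficient excess of m6A-tagged over unbound, 2.05-fold, was under 2-fold with 5 RPKM added or with median-ratio scaling.

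Between genotypes, the inputs of these genes differed little. In Mettl3-deficient input 17 of the 50 were above wild-type, against 45.8% of all genes, and the median log2 difference was -0.14 against -0.05. Past 2-fold, Eif1a was higher, where 2.38% of all genes were, and Pabpc1, Eif4ebp2 and Eif3b were lower, where 6.67% were. In unbound RNA 17 of the 50 were 2-fold lower in Mettl3-deficient cells, where 22.7% of all genes were, and 5 were higher, where 19.7% were. The 17 were Eif4g2, Pabpc1, Eif4b, Eif3c, Gspt1, Eef2k, Eif4g1, Eif3b, Etf1, Eif4ebp2, Eif3d, Eif4a2, Eif5, Eif4enif1, Eif4a1, Eif3m and Eif2a, and the 5 were Eif1a, Eif4ebp1, Eif1ad, Eif5a and Eif2b1. The median in unbound RNA was -0.54, against 0.02 for all genes. It was -0.38 under median-ratio scaling, against 0.17 for all genes. In m6A-tagged RNA 3 were higher (Eif4h, Eif2b5 and Eif3k), where 6.02% of all genes were, and 4 were lower (Gspt1, Eif4ebp2, Eif4g1 and Eif4a2), where 7.15% were. Upper-quartile scaling gave 2 higher and 7 lower, against 5.27% and 8.02% of all genes. The marker sums named above also differed in unbound RNA, in either direction. Neutrophil and promyelocyte markers summed to 9905 RPKM in unbound RNA of wild-type cells and 2637 RPKM in that of Mettl3-deficient cells, with 9 of 10 lower. B cell markers summed to 35.4 and 94.9 RPKM there, although 5 of 7 were lower. Cd79b alone stood at 15.7 and 91.5 RPKM.

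**Figure D4:**
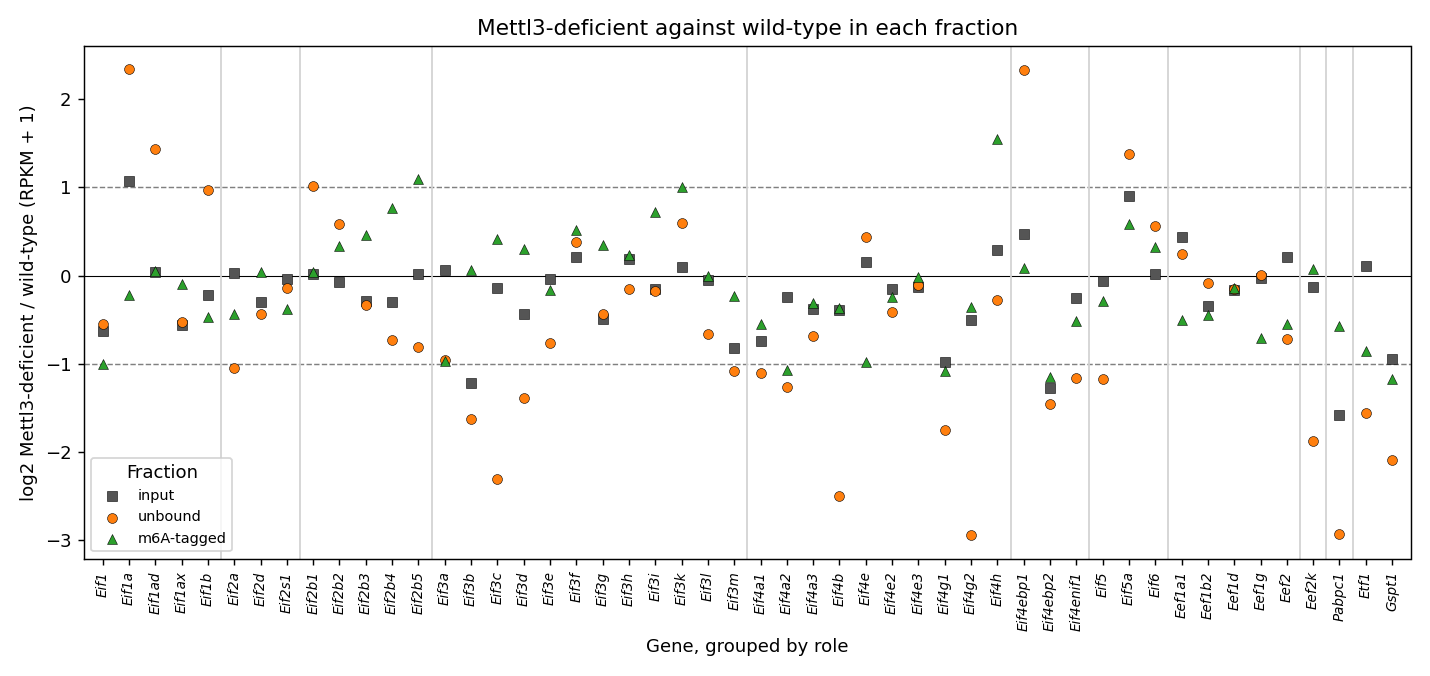
The log2 difference of Mettl3-deficient from wild-type cells for each of the 50 genes (x axis, grouped by role) in input (squares), unbound (circles) and m6A-tagged RNA (triangles), with dashed lines at 2-fold. Squares stay near 0 for most genes, while circles reach below -2 for Eif3c, Eif4b, Eif4g2, Pabpc1 and Gspt1 and above 2 for Eif1a and Eif4ebp1.

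Against input, few of these genes differed 2-fold in m6A-tagged RNA. In wild-type cells Eif1a was higher, where 3.69% of all genes were, and Eif4h, Eif3f and Eif3m were lower, where 5.23% were. Median-ratio scaling gave 0 higher and 3 lower, against 2.72% and 6.18% of all genes. Of the eIF3 genes, 11 of the 12 were below 0, with a median of -0.65 against 0.06 for all genes. With a minimum mean of 50 RPKM, which all of the 12 but Eif3a met, the median of all genes was -0.11. In Mettl3-deficient cells none of the 50 was higher, where 1.37% of all genes were, and Eef1a1 was lower, where 1.45% were. There 8 of the 12 eIF3 genes were below 0 with a median of -0.13. The median of all genes was 0.12, and 0.065 with a minimum mean of 50 RPKM. Unbound RNA against input gave 3 higher members in wild-type cells (Eif3k, Eif3f and Eif3e), where 4.61% of all genes were, and 5 lower (Eif3a, Eif1a, Eif4g1, Eif4enif1 and Gspt1), where 25.5% were. The split was 7 higher and 4 lower with median-ratio scaling, where 6.85% and 24.3% of all genes were. It was 0 higher and 9 lower with upper-quartile scaling, where 0.699% and 30% of all genes were. In Mettl3-deficient cells it gave 8 higher (Eif4ebp1, Eif3k, Eif6, Eif1b, Eif5a, Eif3f, Eef1b2 and Eif1ax), where 18.5% of all genes were. It gave 14 lower (Eif3a, Eif4g1, Etf1, Eef2k, Eif4g2, Gspt1, Eif4enif1, Eif4b, Eif3c, Eif5, Eif2a, Eef2, Eif4a2 and Eif4ebp2), where 29.5% were. Upper-quartile scaling gave 5 higher and 16 lower, against 12.9% and 34.9% of all genes. The lowest were Eif3a at 16.7-fold, Eif4g1 at 7.36-fold and Etf1 at 6.00-fold.

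The genotype difference of m6A-tagged to input was past 2-fold higher for 5 members, Eif3b, Eif4h, Eif2b5, Eif2b4 and Pabpc1, where 7.31% of all genes were. It was past 2-fold lower for 3, Eif1a, Eif4e and Eif3a, where 2.91% were. The split is sensitive to scaling, with 3 higher and 5 lower under median-ratio scaling and 2 higher and 5 lower under upper-quartile scaling. The shares of all genes moved too, to 6.08% higher and 3.75% lower under median-ratio and 5.43% and 4.48% under upper-quartile scaling. The median over the 50 was 0.04, the same as over all genes to 2 decimals. Of the 12 eIF3 genes, 10 were above 0, and 8 were under either scaling. Of all genes, 52.4% were above 0 before scaling. The median of all genes was 0.12 with a minimum mean of 50 RPKM, which all of the 12 but Eif3a met. Scaling took it below 0, to -0.02 by median ratios and -0.06 by upper quartiles.

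The genotype difference of m6A-tagged to unbound was past 2-fold higher for 10 members, where 23.7% of all genes were, and lower for 5, where 22.8% were. Higher were Eif3c, Eif4g2, Pabpc1, Eif4b, Eef2k, Eif2b5, Eif4h, Eif3d, Eif3b and Eif2b4, from 2.72 for Eif3c to 1.49 for Eif2b4. Lower were Eif1a, Eif4ebp1, Eif1b, Eif4e and Eif1ad, from -2.55 for Eif1a to -1.38 for Eif1ad. The median was 0.42, against -0.01 for all genes. All of these comparisons share columns with one another, so they are not separate results.

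Other genes of translation, taken from lists of genes outside the rule, were read the same way. Of 18 genes of translational control compared, 6 were 2-fold above unbound in m6A-tagged RNA of wild-type cells, 10 in Mettl3-deficient cells, and 2 and 1 were below it. The shares of all genes that stand beside these and the next counts are those given above, 31.5% and 33.7% higher and 19.3% and 16.9% lower in wild-type and Mettl3-deficient cells. Pdcd4, an inhibitor of the eIF4A helicase, was 4.98-fold lower in Mettl3-deficient than in wild-type input, and Mknk2, a kinase of eIF4E, was 11.5-fold lower. These were the lowest values of the list, with Ddit3 next at 2.02-fold lower. Of 10 initiation and recycling helpers, 2 were higher and 4 lower in wild-type cells and 5 higher and 2 lower in Mettl3-deficient cells. Gnb2l1 (RACK1), a ribosome-bound scaffold, was 4.59-fold and 4.50-fold lower in m6A-tagged than in unbound RNA, and the selenoprotein factor Secisbp2 was 3.44-fold and 20.7-fold higher. The larger fold of Secisbp2 rests on a Mettl3-deficient unbound value of 0.342 RPKM, which is below the 1 RPKM added. Of 7 mitochondrial translation factors, 1 was higher and none lower in wild-type cells, and 3 were higher and 1 lower in Mettl3-deficient cells. The 20 aminoacyl-tRNA synthetase genes had medians of -0.46 in wild-type cells and 1.43 in Mettl3-deficient ones, beside -0.56 and 0.03 for the translation factors.

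The genes lower in m6A-tagged RNA in both genotypes had a RefSeq span in the genome with a median of 9024 bases over 10 genes, against 29401 bases over the 6 that were higher in both and 15994 bases over the 6288 genes compared that have one. The ranges overlap: among the 10, Eif3h spans 78899 bases and Eif3e 32697 bases, longer than the median of the 6. Across the 50 genes, Spearman's rho of span with the m6A-tagged to unbound difference was 0.29 in wild-type cells and 0.46 in Mettl3-deficient ones. Across all genes compared it was 0.09 and 0.41. These are correlations across genes that share the same columns and are given as descriptions.

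Of the 19 members not compared, Eef1a2, Eif4e1b, Pabpc2, Pabpc5 and Pabpc6 had no read in any of the 18 libraries. A count of 0 over the 3 libraries of a group allows up to 3 reads, which is at most 0.0274 RPKM for these genes, and this covers counting error only. Eef1a2 and Eif4e1b are known from muscle and nerve and from the egg. Pabpc4l had 39 reads in wild-type unbound RNA, all from 1 library. Pabpc1l had 30 reads in wild-type m6A-tagged RNA, again all from 1 library, and 25 in Mettl3-deficient m6A-tagged RNA, spread over all 3 as 6, 7 and 12. Eif5b, the GTPase that joins the subunits, read 11.8, 1.68 and 11.5 RPKM (wild-type) and 10.1, 0.679 and 9.15 RPKM (Mettl3-deficient). The eIF2 beta and gamma subunit genes Eif2s2 and Eif2s3x read 7.81, 10.2 and 8.90 RPKM (wild-type) and 4.91, 1.97 and 5.26 RPKM (Mettl3-deficient) and 2.90, 5.13 and 1.12 RPKM (wild-type) and 3.85, 1.38 and 2.62 RPKM (Mettl3-deficient), far below Eif2s1. Eif3j read 5.57, 4.68 and 6.64 RPKM (wild-type) and 7.08, 3.51 and 8.91 RPKM (Mettl3-deficient), and Pabpc4 read 6.32, 5.97 and 4.84 RPKM (wild-type) and 3.00, 3.62 and 5.81 RPKM (Mettl3-deficient). Eif4ebp3 read 2.33, 1.19 and 8.25 RPKM (wild-type) and 1.97, 1.33 and 1.63 RPKM (Mettl3-deficient), and Eif5a2 was under 1 RPKM in every column. Eif2c1 (Ago1) read 6.65, 4.16 and 2.13 RPKM (wild-type) and 1.86, 0.843 and 4.00 RPKM (Mettl3-deficient) and Eif2c2 (Ago2) read 8.92, 1.29 and 10.3 RPKM (wild-type) and 3.63, 0.0154 and 4.47 RPKM (Mettl3-deficient). The highest value of Eif2c3 or Eif2c4 was 2.24 RPKM, for Eif2c4 in wild-type input.

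Some values may hold reads of neighbours. Of the 50 genes compared, 8 have an annotated small nucleolar RNA within their span, Eif3a, Eif4a1, Eif4a2, Eif4g1, Eif4g2, Eif5, Eef1b2 and Eef2, and 10 overlap another protein-coding gene, among them Eif3m, Eif4enif1 and Eif5a. Whether the counting used strand, and how reads of processed pseudogenes and near copies of genes such as Eef1a1, Eif3c and Eif5a were assigned, is not given in the sources used here.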

How the data were processed

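Poly(A)+ RNA of sorted HSCs was sequenced as Smart-seq2 libraries of 3 fractions, per the labels' protocols. Each genotype has 1 table, in which the authors gave every fraction a single RPKM column. The submitters' processing notes name mm10, Picard and edgeR without roles or versions. The aligner and counter: not given in the sources used here. From the values, a column is an average over 3 libraries after a read was added to every gene. Depths were worked out from the 6986 genes with no read and from genes with few reads. Reads of low genes were solved only where 1 solution existed, with a tolerance set after looking at the values. The labels call the 3 samples of a group biological replicates, but with 1 column per group the planned limma test was not run.

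The tables were joined on gene ID (25 names differed and were taken from the wild-type table) and 1 RPKM was added. Log2 differences between columns were then taken for genes averaging 10 RPKM or more (python 3.11.15, pandas 2.3.3), and a gene was called at 2-fold. This scale understates differences of low genes. The script was tested on simulated data. The plan was to name genes past 2-fold in a comparison or among its 5 highest or lowest members. It also named the eIF3, eIF4 and elongation factor genes one by one. In the text all 50 genes compared were given with their values. The members and lists were chosen with earlier results of these data known. Of 11 comparisons, 4 (unbound against input in each genotype, and the genotypes compared in unbound and in m6A-tagged RNA) were added after values had been seen. All 69 members matched the RefSeq gene table by ID, 5 under another current symbol. Alternatives tried were 0.1 and 5 RPKM added, no minimum and a minimum of 50 RPKM, and median-ratio and upper-quartile scaling of the columns.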

Additional observations from a re-analysis of the deposited data

How the results depend on the processing

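Each group has 1 pooled column, and several unbound values behind the calls are low, such as 2.74 RPKM for Eif4g1 and 2.88 RPKM for Eif3a. No paired analysis was possible because each group has 1 pooled column, and leaving out a library was not run for the same reason. Over 6 alternatives and 11 comparisons, all 66 medians moved by less than 1.5-fold, but medians near 0 changed sign. Of 66 counts past 2-fold, 55 stayed within 1.5 times. These counts add higher and lower genes, so a split can turn over while its count stays. Wild-type unbound against input went from 3 higher and 5 lower to 7 and 4 with median-ratio scaling. With upper-quartile scaling it went to 0 and 9. Counts of members past 2-fold that moved were as follows. With no minimum, wild-type m6A-tagged against input gave 8 in place of 4, and so did Mettl3-deficient against wild-type input. With a minimum of 50 RPKM, which leaves 34 genes, the input comparison gave 2, wild-type unbound against input 3 in place of 8, Mettl3-deficient unbound against input 14 in place of 22, the genotypes in unbound RNA 13 in place of 22, the genotypes in m6A-tagged RNA 4 in place of 7, and the genotype difference of m6A-tagged to input 5 in place of 8. The count 2-fold higher in m6A-tagged than unbound RNA in both genotypes fell from 6 to 0 there. The count for the genotype difference of m6A-tagged to input was also 5 with 5 RPKM added. Mettl3-deficient m6A-tagged against input gave 2 in place of 1 under either scaling. Fewer or more genes entered under the other minimums; otherwise the cause was not tested. Of 142 single calls, 15 were lost with 5 RPKM added, 9 with median-ratio and 14 with upper-quartile scaling, and none was reversed. Scaling moved the median of all genes by over 0.1 in 8 of the 11 comparisons, at most by 0.28 in size.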
